A study of Mus musculus with 17 samples.

Results

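The RNA carried by ribosomes at the endoplasmic reticulum (ER) was set against whole-cell RNA of the same lysates in mouse embryonic stem cells that had received an siRNA against Gnl3. The 6 libraries with that siRNA were taken by their labels from the 17 of the series: 3 biological replicates of ER ribosome-bound RNA and 3 of whole-cell RNA. Every library came from a derivative of the E14Tg2a.4 line whose Rpl31, a large-subunit protein, is fused to a FLAG-TEV-AviTag, grown in serum with leukemia inhibitory factor. Ribosomes at the ER were biotinylated in place by ALIBi, a proximity labelling system delivered by transfection, and then affinity purified, and polyA RNA was sequenced from the purified ribosomes and from a reserved portion of the lysate. The other 11 libraries, from cells given an siRNA against Nmd3 (3 ER ribosome-bound and 3 whole-cell) or a scramble siRNA (2 ER ribosome-bound and 3 whole-cell), carry the same tag and the same ER labelling and serve here for the shared estimate of spread and for the comparison of the ratio between siRNAs. All cells derive from 1 tagged line, so the replicates are cultures of that line. The p-values measure the spread between libraries labelled as biological replicates, pooled over all 6 groups in the fit.

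Proteins bound for secretion, for the cell surface or for the membranes of the ER, Golgi and lysosome are mostly made by ribosomes docked on the ER. The signal recognition particle binds a hydrophobic stretch as it leaves the ribosome, pauses or slows the chain and delivers the ribosome to the Sec61 channel. Tail-anchored proteins, whose hydrophobic segment lies at the very end of the chain, are inserted after synthesis is complete, and proteins of the cytosol, nucleus and mitochondrial matrix need no ER ribosome. Gnl3, also called nucleostemin, is a nucleolar GTPase that is abundant in stem cells and is linked to assembly of the large ribosomal subunit.

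Whole-cell replicate 3 of the Gnl3 siRNA stood apart, and its label says that the submitters set it aside as an outlier. Its log2 CPM (counts scaled to a library total of 1000000) correlated at 0.941 to 0.942 across genes with those of whole-cell replicates 1 and 2, which correlated at 0.991 with each other. It had 19850 genes with a count, against 23777 and 24251 in the other whole-cell libraries, and mitochondrially encoded RNA made up 6.14% of its counts, against 2.03% and 1.91%. The fit used throughout leaves it out, as it does 1 Nmd3 whole-cell library with the same kind of label, and compares 3 ER ribosome-bound with 2 whole-cell libraries. Where the CPM of a gene are listed by library, its value is still printed, last among the whole-cell values unless it is named. Results are also given with all 17 libraries in the fit. That fit brings back both outlier libraries, so a call lost there cannot be put down to 1 of them. Depth ran from 15198736 to 29904256 gene counts in the 6 libraries.

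The start of the coding sequence shows the feature by which many of these mRNAs differ. Among genes with a mean of at least 20 CPM in the higher fraction, the first 90 bases are printed for the 5 mRNAs with the largest rise on ER ribosomes whose protein has an N-terminal hydrophobic stretch and no other segment, and then for the 3 coding mRNAs with the largest fall. The 33 bases in capitals encode the most hydrophobic run of 11 residues among the first 30 residues. The sequences are those of the GENCODE M21 transcripts (GRCm38).
Wfdc2: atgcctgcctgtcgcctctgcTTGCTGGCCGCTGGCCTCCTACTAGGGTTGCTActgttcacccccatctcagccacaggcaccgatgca
Apoe: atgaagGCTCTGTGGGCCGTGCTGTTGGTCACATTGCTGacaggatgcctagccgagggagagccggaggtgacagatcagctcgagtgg
Pcsk1n: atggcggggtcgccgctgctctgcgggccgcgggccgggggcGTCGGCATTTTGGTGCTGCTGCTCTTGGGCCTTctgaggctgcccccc
Gm2a: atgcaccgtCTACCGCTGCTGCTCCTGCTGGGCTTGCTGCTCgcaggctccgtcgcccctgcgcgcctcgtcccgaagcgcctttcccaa
Gpx7: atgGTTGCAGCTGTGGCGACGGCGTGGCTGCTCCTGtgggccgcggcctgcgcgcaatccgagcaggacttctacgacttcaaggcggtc
Mdn1: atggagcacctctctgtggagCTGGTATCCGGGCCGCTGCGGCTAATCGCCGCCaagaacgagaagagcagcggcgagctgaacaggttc
Bod1l: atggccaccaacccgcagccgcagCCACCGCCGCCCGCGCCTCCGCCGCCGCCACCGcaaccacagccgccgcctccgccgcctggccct
Map1b: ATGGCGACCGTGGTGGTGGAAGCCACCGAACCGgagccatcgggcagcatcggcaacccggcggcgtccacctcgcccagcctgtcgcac

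Codons with T in the middle position encode hydrophobic residues. The capitals hold 7 such codons of 11 in Wfdc2 and Apoe, 9 in Pcsk1n and Gm2a and 5 in Gpx7, against 5 in Mdn1, 0 in Bod1l and 4 in Map1b. Since the 5 genes that rose were chosen for having such a stretch and the 3 that fell were not, this contrast among the printed sequences is fixed by the choice and is shown as an illustration. The mean hydropathy of that run on the Kyte-Doolittle scale, where hydrophobic residues are positive, was 2.67 in Wfdc2 and Apoe, and 1.49 in Mdn1 and -1.29 in Bod1l. Over the 680 coding genes that rose by at least 2-fold, the median was 10 middle-T codons among codons 2 to 30. It was 7 over the 660 coding genes that fell by at least 2-fold and 7 over all 14194 coding genes tested.

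Gnl3 itself was low in every library that received its siRNA. It was at 31.6, 26.9 and 29.7 CPM on ER ribosomes and at 70.2, 54.2 and 88.2 CPM in whole-cell RNA after Gnl3 siRNA, against 170 and 177 CPM on ER ribosomes and 272, 270.1 and 256 CPM in whole-cell RNA after scramble siRNA. The Gnl3 and scramble libraries did not overlap in either fraction. Relative to scramble its log2 fold change was -2.58 on ER ribosomes (SE 0.20, edgeR adjusted p = 0.000125) and -2.09 in whole-cell RNA (SE 0.20, edgeR adjusted p = 0.00135). Gnl3 overlaps Pbrm1 on the other strand, and the strand setting of the counting is not given in the sources used here. Within the Gnl3 siRNA libraries Gnl3 was lower on ER ribosomes than in whole-cell RNA, with a log2 fold change of -1.12 (SE 0.21, edgeR adjusted p = 0.00121). With the culture as a replicate block the SE was 0.07 (edgeR adjusted p = 2.26e-13).

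Of 18271 genes tested, 8795 (48.1%) were called between ER ribosome-bound and whole-cell RNA at an adjusted p under 0.05. These were 4251 (23.3%) higher and 4544 (24.9%) lower on ER ribosomes, and 762 (4.17%) rose and 1144 (6.26%) fell by at least 2-fold. With all 17 libraries 4540 of 18525 genes (24.5%) were called, 1910 (10.3%) higher and 2630 (14.2%) lower, and 4420 of them were among the 8795, each in the same direction. In CPM of all 6 libraries 700 of the 762 and 980 of the 1144 did not overlap between the fractions, where 29.5% of all genes tested were higher and 21.2% lower without overlap. Each library is scaled to its own total, so a rise is a larger share of the RNA in that fraction and not a count of molecules.

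The mRNAs that rose most encode secreted, lysosomal and membrane proteins. Cyba, the small membrane subunit of the NADPH oxidase cytochrome, was at 51.9, 59.5 and 58.2 CPM on ER ribosomes and at 15.9, 20.6 and 9.18 CPM in whole-cell RNA. Apoe, a secreted lipid carrier, was at 1320.3, 1506 and 1427 CPM on ER ribosomes and at 437, 524 and 414 CPM in whole-cell RNA. Mdk, the secreted growth factor midkine, was at 592, 619 and 606 CPM on ER ribosomes and at 214, 212 and 207 CPM in whole-cell RNA. In all 3 genes each ER library lay above each whole-cell library, replicate 3 included, and for Apoe and Mdk replicate 3 lay close to the other whole-cell libraries. These genes and those that fell most were chosen for 1 direction in all 3 same-numbered pairs. The separation from replicate 3 is therefore in large part fixed by the choice. The log2 fold changes were 1.58 for Cyba (SE 0.10, edgeR adjusted p = 3.08e-14), 1.52 for Apoe (SE 0.07, 6.76e-14) and 1.47 for Mdk (SE 0.05, 2.72e-22).

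The other 9 of the 12 that rose most, at a mean of at least 20 CPM on ER ribosomes, had log2 fold changes of 1.44 to 1.54. They were the secreted Wfdc2 (1.54), the vitamin K epoxide reductase Vkorc1 of the ER membrane (1.51), the secretory-granule protein Pcsk1n (1.51, overlapping Eras on the other strand) and the lysosomal ganglioside activator Gm2a (1.50). With them stood the ER peroxidase Gpx7 (1.49), the secreted peroxidase Gpx3 (1.48), the membrane-anchored protease inhibitor Spint2 (1.46), the oligosaccharyltransferase subunit Dad1 (1.45) and the GPI-anchored Ly6e (1.44). With all 17 libraries each of the 12 was still called, at 1.27 to 1.83. Whole-cell replicate 3 of Vkorc1, at 12.2 CPM, was above replicates 1 and 2 at 9.80 and 7.77 CPM, while that of Cyba was below them.

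Apart from mitochondrially encoded mRNAs, those that fell most encode mainly very long proteins of the nucleus and cytosol, or no protein. Rian, an imprinted long noncoding RNA, was at 26.2, 25.2 and 29.5 CPM on ER ribosomes and at 236, 203 and 256 CPM in whole-cell RNA (-3.08, SE 0.07, edgeR adjusted p = 1.09e-26). Mdn1, the AAA ATPase that remodels pre-60S particles, was at 45.9, 36.2 and 38.4 CPM on ER ribosomes and at 286, 299 and 300.4 CPM in whole-cell RNA (-2.91, SE 0.17, 1.67e-07). Bod1l, which protects stalled replication forks, was at 7.69, 8.43 and 8.51 CPM on ER ribosomes and at 61.1, 53.7 and 121 CPM in whole-cell RNA (-2.85, SE 0.10, 8.18e-22). Both fractions were well apart in each, and whole-cell replicate 3 of Bod1l was the highest library. Then came Map1b (-2.82, a microtubule-associated protein), Malat1 (-2.80, a nuclear noncoding RNA overlapping Gm37376 on the other strand), Rif1 (-2.63, a replication timing factor), Knl1 (-2.60, a kinetochore scaffold), the centrosomal Cep350 (-2.44), the Golgi-peripheral coiled-coil protein Gcc2 (-2.42) and the cohesin loader Nipbl (-2.40). Mars, the methionyl-tRNA synthetase, fell too (edgeR adjusted p = 0.000346) and overlaps Ddit3 on the other strand.

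**Figure D1:**
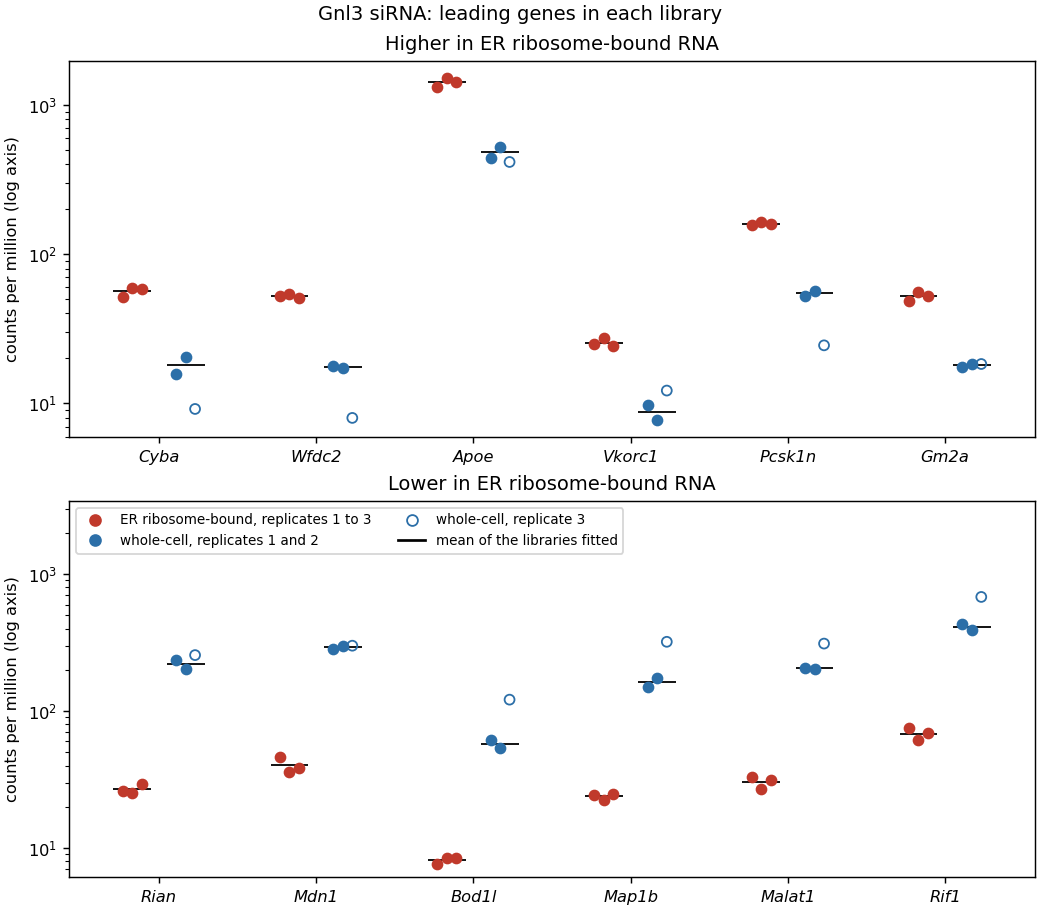
CPM of 6 genes that rose and 6 genes that fell most on ER ribosomes after Gnl3 siRNA, on a log axis, with 1 point per library, ER ribosome-bound to the left of whole-cell and a line at the mean of the libraries fitted; whole-cell replicate 3 is an open point. Each gene's fractions are separate in all 6 libraries, which the choice of genes with 1 direction in all 3 pairs fixes in large part. The open point lies below its companions for Cyba, Wfdc2 and Pcsk1n and above them for Bod1l, Map1b, Malat1 and Rif1.

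The largest fall among the 12 was that of Gm13340 (-5.72), which is annotated as an unprocessed pseudogene. In its transcript 45.2% of the 31-base words occur in mitochondrial transcripts, so that reads shared with those are uncertain. It was at 0.543, 0.334 and 1.04 CPM on ER ribosomes and at 35.5, 24.3 and 93.3 CPM in whole-cell RNA. Mitochondrially encoded mRNAs are translated by the mitochondrion's own ribosomes, and 11 of 11 fell. mt-Cytb was at 21.0, 18.6 and 19.3 CPM on ER ribosomes and at 3110.0, 2938 and 7149 CPM in whole-cell RNA, a log2 fold change of -7.31 (SE 0.26, edgeR adjusted p = 3.79e-09). For 2 members only 1 or 3 counts were seen over the 3 ER libraries. With these held at 3 counts over the group, the median log2 ratio of pooled CPM over the 11 was -6.52, and the other 9 ranged from -7.27 to -5.39.

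Secreted and extracellular matrix proteins were higher on ER ribosomes as mRNAs in most cases: 34 of 49 rose and 3 fell, with a median log2 fold change of 0.92, where the median of all genes tested was 0.02. The 3 that fell were Agrn (-0.93), Lama1 (-0.92) and Col4a2 (-0.43, overlapping Col4a1 and Gm15419), which encode long basement membrane proteins. Agrn was at 124, 112 and 120.0 CPM on ER ribosomes and at 212, 228 and 85.7 CPM in whole-cell RNA. Whole-cell replicate 3 of Agrn thus lay below the ER libraries, and with all 17 libraries Agrn was not called (edgeR adjusted p = 0.222), nor were Lama1 (0.109) and Col4a2 (0.506), so that 0 of the list fell and 29 rose. With the culture as a replicate block 6 fell and 35 rose.

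Of 61 plasma membrane receptors and adhesion proteins 40 rose and 5 fell (median 0.48), against 28 and 3 with all 17 libraries. The chaperone of monocarboxylate transporters Bsg (1.44, SE 0.05), the transcobalamin receptor Cd320 (1.42, SE 0.08) and the heparan sulfate proteoglycan Sdc4 (1.39, SE 0.06) led. Bsg was at 727, 758 and 755 CPM on ER ribosomes and at 263, 272 and 211 CPM in whole-cell RNA, with no overlap. At the other end Lrp2, a very large endocytic receptor, was at 27.7, 22.1 and 25.3 CPM on ER ribosomes and at 57.9, 61.3 and 63.9 CPM in whole-cell RNA (-1.30, SE 0.28, edgeR adjusted p = 0.00346), again with no overlap. The giant cadherin Fat1 fell as well (-0.96, SE 0.24, overlapping Gm2366).

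Of 47 solute carriers and ion transporters 34 rose and 3 fell (median 0.42). The folate carrier Slc46a1 (1.24), the zinc importer Slc39a4 (1.18) and the sodium pump subunit Atp1b3 (0.95) were highest, and the calcium pump Atp2b1 (-0.65), the drug efflux pump Abcc1 (-0.53) and the cotransporter Slc12a2 (-0.33) were lowest. Abcc1 was not called with all 17 libraries (edgeR adjusted p = 0.633). Of 52 lysosomal hydrolases and membrane proteins 47 rose and 0 fell (median 0.88), with the cathepsin Ctsh (1.72, SE 0.48), Gm2a and the glycoprotein Cd68 (1.36, SE 0.15) highest. The rank of Ctsh rests on few reads, with 29, 46 and 28 counts on ER ribosomes and 5, 10 and 0 in whole-cell RNA. Lamp2, an abundant lysosomal membrane glycoprotein, was at 43.7, 48.7 and 46.5 CPM on ER ribosomes and at 38.4, 41.1 and 49.8 CPM in whole-cell RNA. Its fractions overlapped through whole-cell replicate 3, and its log2 fold change of 0.18 (edgeR adjusted p = 0.0484) was 0.02 with all 17 libraries.

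The membrane and cytosolic sectors of the proton pump that acidifies lysosomes were compared. All 9 membrane-sector subunits tested rose (median 0.98), led by the proteolipid Atp6v0c at 121, 128 and 129.7 CPM on ER ribosomes and at 48.1, 46.8 and 7.01 CPM in whole-cell RNA (1.37, SE 0.07). The lowest of the 9 was Atp6v0d1 (0.49, SE 0.06), a subunit with no hydrophobic segment by the measure used here. Of 8 cytosolic-sector subunits 4 (50%) rose and 2 (25%) fell (median 0.17), where 23.3% of all genes tested rose and 24.9% fell. Among them were Atp6v1f (0.36) and the catalytic subunit Atp6v1a (-0.65, SE 0.06). Atp6v1a was at 128, 115 and 122 CPM on ER ribosomes and at 189, 181 and 183 CPM in whole-cell RNA, with no overlap. All 9 membrane subunits were called higher with all 17 libraries, while 0 cytosolic subunits were called higher and 1 lower.

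The machinery of the ER itself was also higher on ER ribosomes. Of 49 ER chaperones and unfolded protein response genes 43 rose and 1 fell (median 0.84). The prolyl isomerase Ppic (1.40, SE 0.09), the chaperone cofactor Sdf2l1 (1.37, SE 0.08) and the oxidoreductase Txndc12 (1.29, SE 0.08) led, and the member that fell was the stress sensor Atf6 (-0.51, SE 0.14, edgeR adjusted p = 0.00695, and 0.0798 with all 17 libraries). Atf6 was at 31.7, 30.1 and 29.2 CPM on ER ribosomes and at 42.2, 41.7 and 54.7 CPM in whole-cell RNA. Its protein has no N-terminal stretch and 1 internal segment.

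Of 43 genes for signal recognition, translocation and membrane insertion 33 rose and 3 fell (median 0.55). The signal peptidase subunits Sec11a (1.29, overlapping Gm16171) and Spcs1 (1.25, overlapping Glt8d1) and the membrane complex subunit Emc10 (1.16) were highest. The 3 that fell belong to the cytosolic side of the pathway: Srp54a (-0.80), a subunit of the signal recognition particle with near-identical copies, the chaperone Bag6 (-0.35) and the particle's Srp72 (-0.18). None of these 3 was called with all 17 libraries (edgeR adjusted p = 0.614, 0.813 and 0.172), and whole-cell replicate 3 of Srp54a and of Bag6 lay below the ER libraries. In that fit 20 of the list rose and 1 fell. Rrbp1, a ribosome receptor of the ER membrane named here after its value was seen, was at 69.3, 54.3 and 73.3 CPM on ER ribosomes and at 134, 135 and 156 CPM in whole-cell RNA. Its log2 fold change was -1.08 (SE 0.41), with an edgeR adjusted p of 0.0517, of 1.33e-12 with the culture as a replicate block and of 0.0143 with all 17 libraries.

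Of 11 subunits of the oligosaccharyltransferase, which attaches N-glycans to entering chains, 9 rose and 0 fell (median 0.95). Dad1 was at 178, 175 and 182 CPM on ER ribosomes and at 68.8, 57.9 and 80.1 CPM in whole-cell RNA (1.45, SE 0.10), Krtcap2 rose by 1.30 (overlapping Trim46) and Ddost by 1.26. Ost4, a subunit of 37 residues, was at 104, 110.4 and 105 CPM on ER ribosomes and at 90.1, 80.6 and 148 CPM in whole-cell RNA. Its fractions overlapped through whole-cell replicate 3, and its log2 fold change of 0.28 (overlapping Agbl5) was -0.09 with all 17 libraries. The catalytic subunit Stt3b, with 10 internal segments, rose by 0.21 (SE 0.08) and was not called with all 17 libraries (edgeR adjusted p = 0.195).

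Of 21 p24 proteins and lectins, the cargo receptors between ER and Golgi, 20 rose and 1 fell (median 1.02). Tmed3 (1.34), Tmed1 (1.32, overlapping Dnm2) and Tmed9 (1.24) led. Tmed5 was the one that fell, at 107, 102 and 105 CPM on ER ribosomes and at 120.3, 119.6 and 175 CPM in whole-cell RNA (-0.24, SE 0.07, overlapping Mtf2). Of 50 Golgi and glycosylation genes 32 rose and 2 fell (median 0.50), with the Rab acceptor Rabac1 (1.40, SE 0.08) highest and the fucosyltransferase Fut9 (-1.14, SE 0.10) lowest. Rabac1 was at 121, 136 and 131 CPM on ER ribosomes and at 48.3, 46.9 and 7.95 CPM in whole-cell RNA, so that its fold rests in part on which whole-cell libraries are used (1.87 with all 17).

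Enzymes of cholesterol and fatty acid synthesis split by where they reside. Of 29 in the ER membrane 24 rose and 1 fell (median 0.65), led by the sterol isomerase Ebp (1.28), the enoyl reductase Tecr (1.21) and the ketoacyl reductase Hsd17b12 (1.01). The member that fell, the lanosterol synthase Lss (-0.49, overlapping 4930483K19Rik), had no hydrophobic segment by the measure used here, and it was not called with all 17 libraries (edgeR adjusted p = 0.369), its whole-cell replicate 3 at 36.1 CPM lying below the ER libraries. Of 11 in the cytosol 3 (27.3%) rose and 4 (36.4%) fell (median -0.12, and 0.04 with all 17 libraries), where 23.3% of all genes tested rose and 24.9% fell. Mevalonate kinase Mvk was at 0.55 and fatty acid synthase Fasn at -1.15. Fasn was at 290.1, 267 and 275 CPM on ER ribosomes and at 576, 623 and 288 CPM in whole-cell RNA, where replicate 3 lay at the level of the ER libraries and the call was lost with all 17 libraries (edgeR adjusted p = 0.0627).

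**Figure D2:**
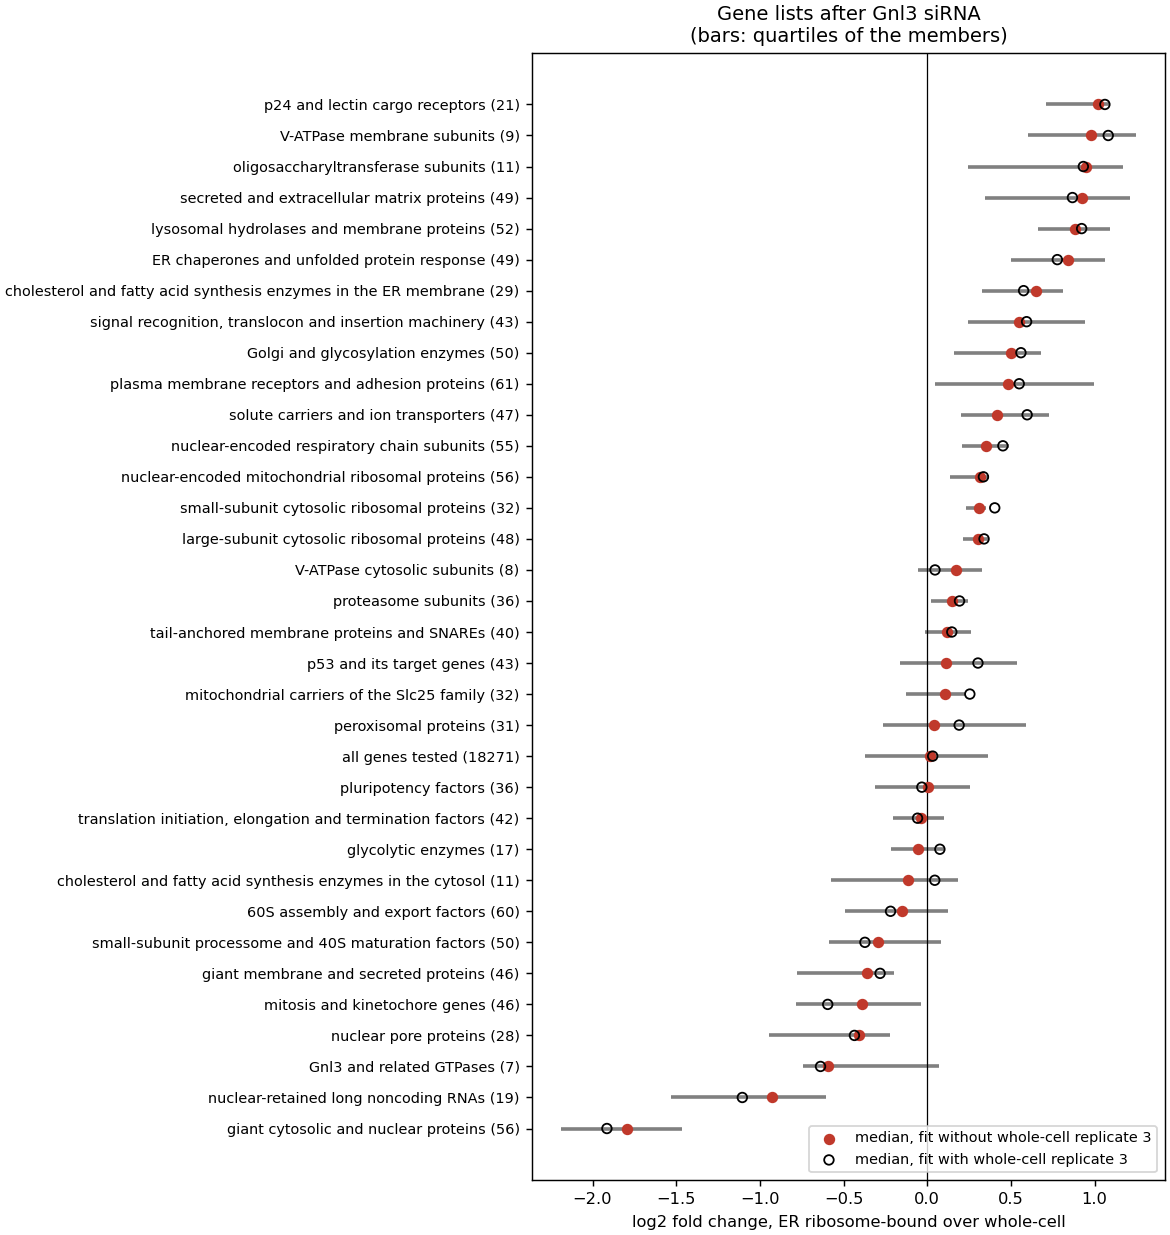
Median log2 fold change of ER ribosome-bound over whole-cell RNA for the gene lists other than mitochondrially encoded mRNAs and the markers of other cell types, with the number of members tested in brackets, bars over the interquartile range of the members, filled points for the fit without whole-cell replicate 3 and open points for the fit of all 17 libraries. Among the lists plotted, cargo receptors lie highest at 1.02 in the fit without replicate 3 and giant cytosolic and nuclear proteins lowest at -1.79, and the 2 medians of a list lie close together beside that span.

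Tail-anchored proteins and SNAREs, which are inserted after translation, had a median of 0.12, against 0.02 over all genes tested. Of 40 members 15 (37.5%) rose and 4 (10%) fell, where 23.3% of all genes tested rose and 24.9% fell. With all 17 libraries 1 rose and 1 fell, where 10.3% of all genes rose and 14.2% fell. The last 90 coding bases are shown for the highest and the lowest of those named whose single segment lies within 50 residues of the end, with the most hydrophobic 19 codons in capitals.
Vamp8: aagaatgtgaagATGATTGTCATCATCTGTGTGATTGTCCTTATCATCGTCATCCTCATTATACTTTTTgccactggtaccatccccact
Stx16: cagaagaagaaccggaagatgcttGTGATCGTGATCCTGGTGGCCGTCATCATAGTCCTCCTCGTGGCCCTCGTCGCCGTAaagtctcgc

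The endosomal SNARE Vamp8, with 18 middle-T codons of 19 in capitals, was at 7.38, 7.36 and 7.90 CPM on ER ribosomes and at 4.80, 5.57 and 3.70 CPM in whole-cell RNA (0.49, SE 0.17, edgeR adjusted p = 0.0143, and 0.29 with all 17 libraries). The Golgi SNARE Stx16, with 16 such codons of 19, was at 36.2, 38.1 and 41.1 CPM on ER ribosomes and at 56.8, 54.7 and 61.8 CPM in whole-cell RNA (-0.58, SE 0.07, 2.03e-08). Neither overlapped between fractions, and they differed in direction although both segments are strongly hydrophobic. The apoptosis effector Bax had the highest value of the list (0.66, SE 0.06), and its whole-cell replicate 3 at 78.6 CPM was far below replicates 1 and 2 at 271 and 266 CPM, and with all 17 libraries it was not called (edgeR adjusted p = 0.0659).

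Peroxisomal proteins, which are imported from the cytosol or inserted from the ER, were split, with 12 of 31 (38.7%) higher and 7 (22.6%) lower (median 0.04), against 9 and 3 with all 17 libraries. The membrane proteins Pxmp4 (1.13, SE 0.14) and Pex10 (0.87, SE 0.09) were highest, and the matrix enzyme Agps (-0.72, SE 0.06) was among the lowest. Nuclear-encoded mRNAs of the respiratory chain and the mitochondrial ribosome were more often higher than lower, where 23.3% of all genes tested rose and 24.9% fell. Of 55 respiratory chain subunits 42 rose and 3 fell (median 0.35), of 56 mitochondrial ribosomal proteins 40 rose and 0 fell (median 0.32). Of 32 Slc25 carriers 9 (28.1%) rose and 5 (15.6%) fell (median 0.11), shares nearer to those of all genes. With all 17 libraries 9 of the respiratory chain, 2 of the mitochondrial ribosome and 3 of the carriers were called higher, and 2, 0 and 3 lower.

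Within the respiratory chain a few members were as high as secretory mRNAs. Ndufb5, a subunit of complex I (1.20, SE 0.06, overlapping Mrpl47), Cox4i1, a subunit of cytochrome c oxidase (1.12, SE 0.05, overlapping Emc8), and Ndufa13 of complex I (1.11, SE 0.07, overlapping Tssk6) rose. Cox4i1 was at 992, 1043 and 1033 CPM on ER ribosomes and at 463, 449 and 357 CPM in whole-cell RNA, with no overlap. The succinate dehydrogenase subunit Sdha was at 168, 166 and 180.4 CPM on ER ribosomes and at 284, 297 and 211 CPM in whole-cell RNA (-0.80, SE 0.14), also with no overlap.

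The mRNAs of the cytosolic ribosome rose by a small and even amount. Of 48 large-subunit proteins 38 rose and 0 fell (median 0.30), and of 32 small-subunit proteins 27 rose and 1 fell (median 0.31). Rplp2, an acidic stalk protein, was highest at 963, 1080.5 and 1013 CPM on ER ribosomes and at 671, 643 and 302 CPM in whole-cell RNA (0.59, SE 0.05). Rps2 was the member that fell, at 2106, 2197 and 2166 CPM on ER ribosomes and at 2656, 2581 and 1970.3 CPM in whole-cell RNA (-0.32, SE 0.05, overlapping Snhg9), with its replicate 3 below the ER libraries. With all 17 libraries 0 of the 80 were called by edgeR, although the medians were 0.34 and 0.40. Ribosomal protein genes have many processed copies, so that reads shared with those copies are uncertain.

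The factors that build the ribosome leaned the other way, and they encode longer proteins. The median length was 542 residues for large-subunit and 597.5 for small-subunit factors, against 157 and 148.5 for the ribosomal proteins. All genes with no hydrophobic segment had a median of 0.25 under 200 residues, where 49.0% rose. At 500 to 999 residues their median was -0.24, and 47.6% fell. Whether these lists differ from other genes of their length was not tested. Of 7 Gnl3-related GTPases 4 fell and 0 rose (median -0.59): Gnl3 itself, Gnl2 (-0.84, overlapping Dnali1), Gtpbp4 (-0.64, overlapping Gm48649) and Gnl3l (-0.59). Gnl3l was at 101, 100.4 and 103 CPM on ER ribosomes and at 153, 144 and 151 CPM in whole-cell RNA, with no overlap. Of 60 assembly and export factors of the large subunit 31 fell and 11 rose (median -0.15), against 18 and 1 with all 17 libraries, from Mdn1 at -2.91 to the stalk assembly factor Mrto4 at 0.71. Of 50 small-subunit processome and maturation factors 30 fell and 7 rose (median -0.29), against 20 and 0 with all 17 libraries, from the very long Utp20 (-2.20, SE 0.16) to Tsr3 (0.43, overlapping Baiap3 and not called with all 17 libraries).

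Other cytosolic and nuclear groups varied. Of 36 proteasome subunits 22 (61.1%) rose and 4 (11.1%) fell (median 0.15), above the shares of all genes, although with all 17 libraries 1 rose and 2 fell. Of 17 glycolytic enzymes 3 (17.6%) rose and 5 (29.4%) fell (median -0.05), and of 42 translation factors 9 (21.4%) rose and 14 (33.3%) fell (median -0.04). Of all genes tested 23.3% rose and 24.9% fell. Of the glycolytic enzymes 0 rose and 1 fell with all 17 libraries, and of the translation factors 0 rose and 5 fell. The lowest members were the proteasome activator Psme4 (-0.86), the initiation factor scaffold Eif3a (-1.56, SE 0.17) and, among glycolytic enzymes, the phosphofructokinase Pfkp (-0.56, overlapping Pitrm1). Of 46 mitosis and kinetochore genes 29 fell and 5 rose (median -0.39), against 25 and 0 with all 17 libraries, with the kinetochore proteins Cenpf (-2.34) and Cenpe (-2.29) next to Knl1. Of 28 nuclear pore proteins 21 fell and 0 rose (median -0.41), against 14 and 0 with all 17 libraries. Lowest were Ranbp2 (-1.83), Ahctf1 (-1.63, overlapping Gm10518) and Nup205 (-1.58). Median lengths were 853 residues for the mitosis and 872.5 for the nuclear pore genes. Among all genes with no hydrophobic segment and 500 to 999 residues 47.6% fell. A difference of either list from genes of like length was not tested.

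Giant proteins were compared by where they act. The lists differ in length, with medians of 3284 residues for cytosolic and nuclear and 2732 for membrane and secreted proteins. Of all coding genes from 2000 residues on, 73.1% fell and 1.88% rose (median -1.06). Of 56 giant cytosolic and nuclear proteins 55 fell and 0 rose (median -1.79). Of 46 giant membrane and secreted proteins 23 fell and 2 rose (median -0.36). With all 17 libraries 6 fell and 0 rose, and the median in pair 3 alone was 0.13. The basement membrane protein Nid1 (0.35, overlapping Gm48682) and the semaphorin receptor Plxnb2 (0.20) rose, while the calcium channel Itpr1 (-1.79, SE 0.24, overlapping Gm44040 and Gm44101) and the proteoglycan Vcan (-1.34) were lowest. Itpr1 and Vcan were still called with all 17 libraries. Among 19 noncoding RNAs known to stay in the nucleus, 13 fell and 0 rose (median -0.93), and over all 1937 long noncoding genes tested the median was -0.17.

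Both features seen in these lists, hydrophobic segments and length, were measured on every protein. The 14194 genes with a GENCODE coding sequence, of which 26.9% rose and 26.1% fell, were classed by their hydrophobic segments: an N-terminal stretch is a run of 11 residues among the first 30 with a mean hydropathy of at least 2.0, and an internal segment is a run of 19 residues further on with a mean of at least 1.6. Of 1031 genes with an N-terminal stretch only, 53.4% rose and 7.18% fell (median 0.57). With the threshold for the stretch at 1.5 the class held 1788 genes, of which 41.8% rose and 14.3% fell (median 0.28), and at 2.5 it held 566 genes (median 0.64). The medians were 0.59 over 721 genes with 1 internal segment in addition and 0.52 over 494 genes with 2 or more in addition. Without an N-terminal stretch they were 0.36 over 1355 genes with 2 or more internal segments, -0.09 over 1284 genes with 1, 0.09 over 288 genes with a C-terminal segment only and -0.06 over 9021 genes with none, of which 18.4% rose and 31.6% fell.

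In every class the median was lower in each longer bin of protein length, and the cause was not tested. Over all coding genes the median log2 fold change was 0.31 for proteins under 200 residues, 0.15 from 200 residues, -0.14 from 500, -0.54 from 1000 and -1.06 from 2000 on. Genes with an N-terminal stretch only were at 0.77, 0.67, 0.43, 0.02 and -0.78 in those bins, against 0.25, 0.05, -0.24, -0.65 and -1.18 for genes with no segment. At each length the class with the stretch thus lay above the class without one, and in both classes each longer bin lay below the shorter one. In the longest bin the class with the stretch only held 20 genes, of which 0 rose and 9 fell. Genes with internal segments but no stretch did not lie above those with no segment there. They were at -1.25 with 1 segment and -1.22 with 2 or more.

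**Figure D3:**
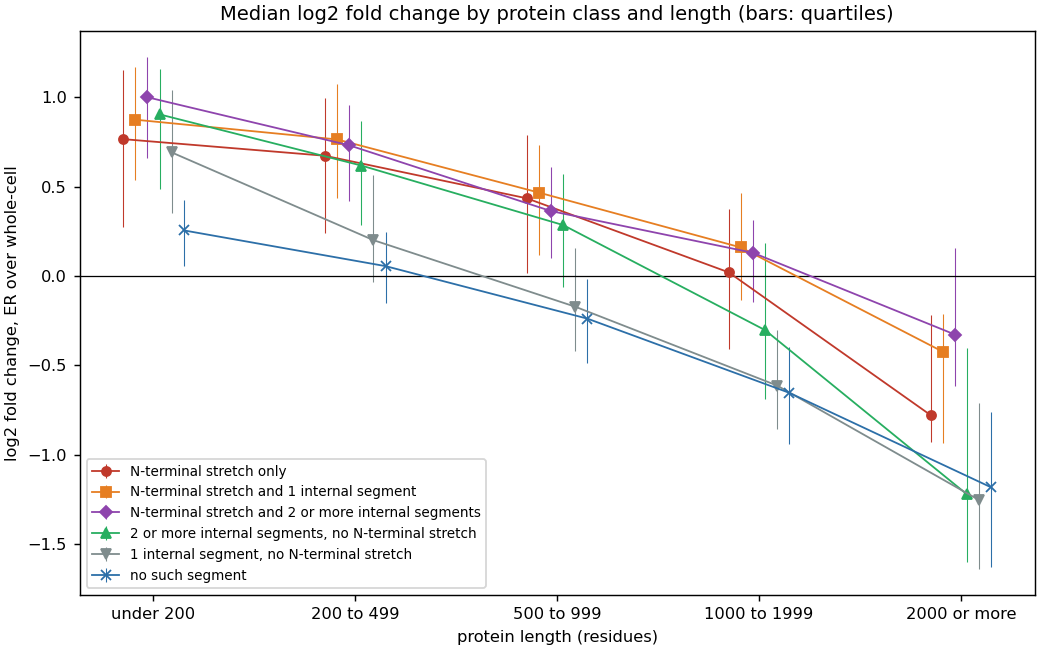
Median log2 fold change of ER ribosome-bound over whole-cell RNA by protein length in residues, for classes of hydrophobic segments computed from the coding sequence, with bars over the interquartile range of genes. Every class plotted falls with length, and classes with an N-terminal stretch lie above the class without any segment in each bin, at 0.77 against 0.25 under 200 residues and -0.78 against -1.18 at 2000 or more for the stretch-only class.

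Markers of the cell type were checked in both fractions. All 8 embryonic stem cell markers exceeded 1 CPM in each of the 6 libraries, with a sum of 6787 to 7033 CPM on ER ribosomes and of 5357, 5679 and 3258 CPM in whole-cell RNA. The sums over 20 fibroblast and feeder markers were 435 to 457 CPM on ER ribosomes and 278 to 350.1 CPM in whole-cell RNA, with 11 to 13 of 20 above 1 CPM and 1 to 7 at 0. Vim alone was at 318 to 339 CPM on ER ribosomes and at 214 to 266 CPM in whole-cell RNA. The sums over 24 primitive endoderm markers were 723 to 759.6 CPM on ER ribosomes and 418 to 512 CPM in whole-cell RNA, with 15 to 17 of 24 above 1 CPM and 1 to 3 at 0. Sparc alone was at 467 to 496 CPM on ER ribosomes and at 184 to 193 CPM in whole-cell RNA. Of those tested, 6 of 14 feeder markers (42.9%) rose and 0 fell, and 3 of 20 endoderm markers (15%) rose and 4 (20%) fell. Of all genes tested 23.3% rose and 24.9% fell. Of the feeder markers 3 rose and 0 fell with all 17 libraries, and of the endoderm markers 3 rose and 2 fell. In that fit 10.3% of all genes rose and 14.2% fell. In these bulk libraries fewer cells of a type and less RNA per cell cannot be told apart, and the part of such cells in any result was not tested.

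Genes of the stem cell state were called in both directions. Of 36 pluripotency factors 13 (36.1%) rose and 14 (38.9%) fell (median 0.00), where 23.3% of all genes tested rose and 24.9% fell. With all 17 libraries 5 rose and 7 fell. The 3 highest encode secreted or surface-anchored ligands and coreceptors of signalling. Tdgf1, the GPI-anchored Nodal coreceptor, was at 2306, 2426 and 2364 CPM on ER ribosomes and at 1132, 1168 and 1037 CPM in whole-cell RNA (1.00, SE 0.04). The ligand Gdf3 rose by 0.82 and the growth factor Fgf4 by 0.61. The DNA demethylase Tet2 fell (-1.34, SE 0.11, overlapping Gm42567), as did Tet1 (-1.32) and the RNA-binding Lin28b (-1.21). Of 43 genes of the p53 pathway 19 (44.2%) rose and 10 (23.3%) fell (median 0.11), against 9 and 4 with all 17 libraries. They ran from the membrane protein Perp (1.31) and the secreted Pltp (1.13, overlapping Ctsa) among the highest to the transcription factor Sp1 (-1.04) at the low end.

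The 3 same-numbered pairs, each from 1 lysate, show how far these values repeat. As log2 ratios of CPM with 0.5 added, pairs 1 and 2 differed by a median of 0.161 over genes, and pair 3 differed from their mean by a median of 0.536. Of the 4251 genes called higher, 3819 (89.8%) were above 0 in pair 3, and of the 4544 called lower 3562 (78.4%) were below 0. Whole-cell replicate 3 took no part in the calls, but ER replicate 3 did, so that the agreement is partly built in. All genes tested had a median of 0.23 in pair 3, so that more of them lay above 0 there than below. Among the genes past 2-fold, 724 of 762 and 1013 of 1144 kept their direction in pair 3. The medians of the lists in pairs 1, 2 and 3 were 0.93, 0.88 and 1.20 for lysosomal proteins, 0.86, 0.89 and 1.03 for ER chaperones and -1.67, -1.78 and -1.95 for giant cytosolic and nuclear proteins. They were 0.34, 0.46 and 0.91 for the respiratory chain and 0.29, 0.41 and 0.92 for small-subunit ribosomal proteins, and the median of all genes was 0.05, 0.05 and 0.23.

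**Figure D4:**
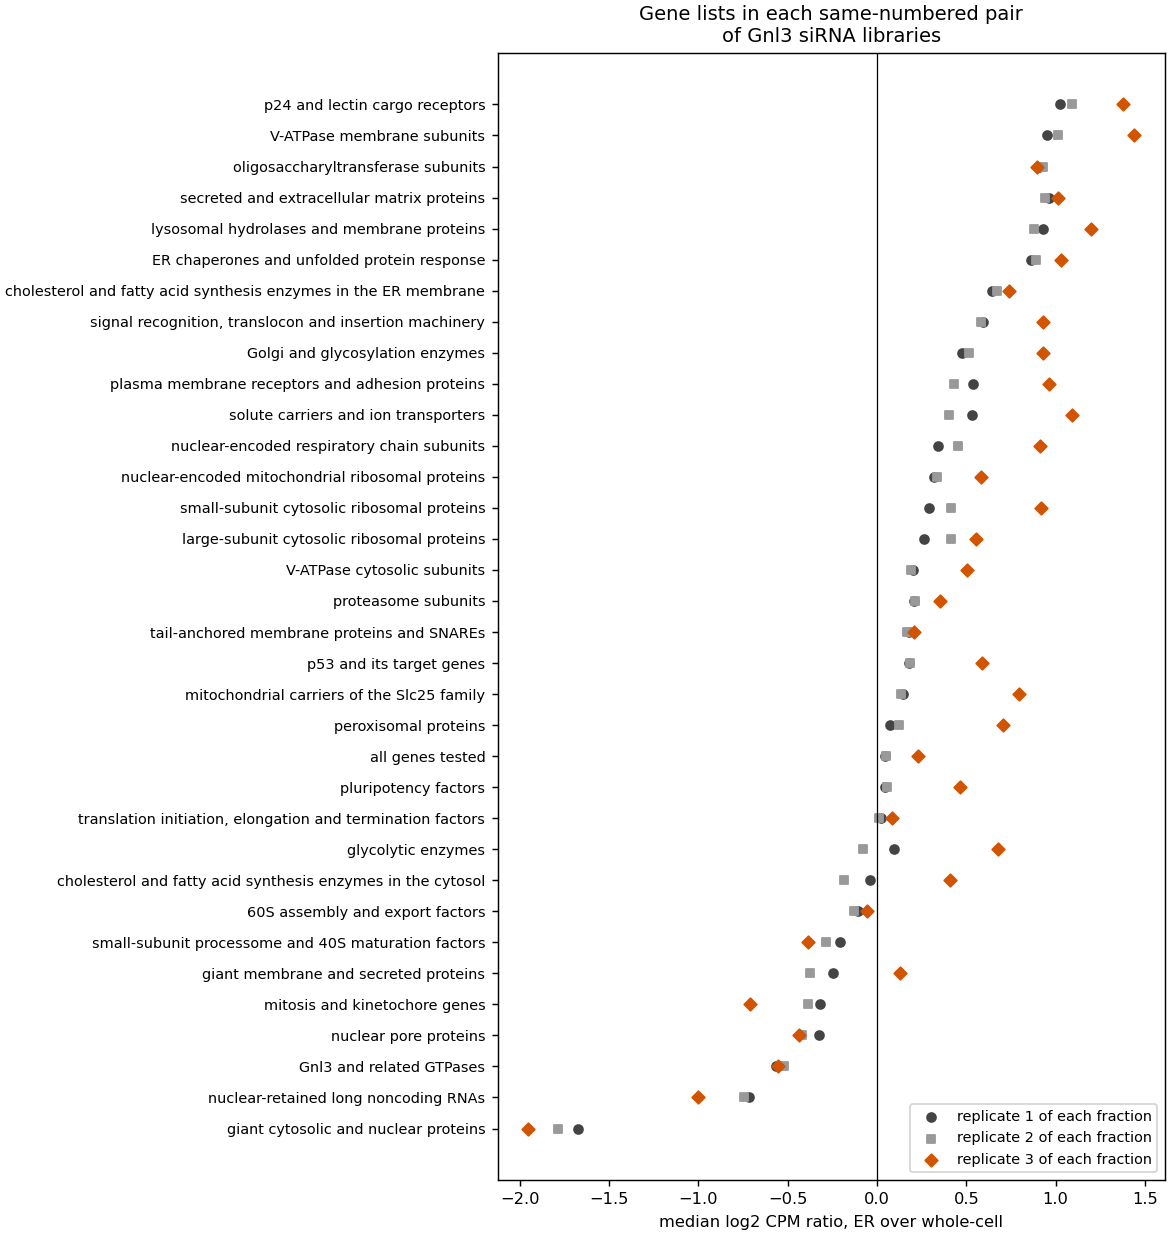
Median log2 ratio of CPM (0.5 added) of ER ribosome-bound over whole-cell RNA for each gene list in the 3 same-numbered pairs of Gnl3 siRNA libraries. Pairs 1 and 2 lie close together, and pair 3, which holds the whole-cell library that stood apart, lies to the right for many lists, such as the respiratory chain at 0.91, and to the left for giant cytosolic and nuclear proteins at -1.95.

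The last comparison asks whether the ER to whole-cell ratio after Gnl3 siRNA differed from that in cells given another siRNA. Against scramble, edgeR called 0 of 18271 genes (0%) for a difference of the ratio, with 649 at an unadjusted p under 0.05, and DESeq2 called 0, with 427 at an unadjusted p under 0.05. The median SE of the difference was 0.11 on the log2 scale over the 8198 genes with a mean of at least 20 CPM in 1 of the Gnl3 fractions. Over those genes the median absolute difference was 0.07, 95% were within 0.22 and 0 reached 2-fold. Gnl3 itself had a ratio of -1.12 after its own siRNA and of -0.64 after scramble siRNA, a difference of -0.48 (SE 0.28) that was not called. With the culture as a replicate block the difference was -0.50 (SE 0.09, edgeR adjusted p = 0.191). The spread is shared by all groups. In Nmd3 siRNA ER ribosome-bound replicate 2 Gnl3 stood at 263 CPM, against 164 and 180 CPM in replicates 1 and 3. That library also stood above replicates 1 and 3 for Mars, Lrp2 and Fat1, but not for Apoe and Wfdc2. How far that library widens the SE was not tested.

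For some lists the medians after the Gnl3 and the scramble siRNA lay close together, and for others they lay further apart. The medians were 0.88 after Gnl3 and 0.83 after scramble siRNA for lysosomal proteins, 0.92 and 0.88 for secreted proteins, and -1.79 and -1.91 for giant cytosolic and nuclear proteins. For large-subunit ribosomal proteins they were 0.30 after Gnl3 and 0.44 after scramble siRNA, and for small-subunit ribosomal proteins 0.31 and 0.45. Golgi and glycosylation genes were at 0.50 and 0.35, giant membrane and secreted proteins at -0.36 and -0.55, and respiratory chain subunits at 0.35 and 0.50. These are descriptions of lists, and 0 members of any list were called for a difference. A p that misses the threshold does not show that the ratios are alike.

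Against Nmd3 siRNA, 1 gene (0.00547%) was called by edgeR and 1 by DESeq2, with 791 and 576 at an unadjusted p under 0.05. It was Nmd3, the target of the other siRNA and the adaptor that carries the large subunit out of the nucleus. Nmd3 was at 125, 119.7 and 119.7 CPM on ER ribosomes and at 152, 142 and 274 CPM in whole-cell RNA after Gnl3 siRNA. Its ratio was -0.32 after Gnl3 siRNA and -0.82 after Nmd3 siRNA, a difference of 0.50 (SE 0.09, edgeR adjusted p = 0.0283). With the culture as a replicate block its adjusted p was 0.354, and with all 17 libraries 0.713, and the call was also lost when any 1 of the 5 Gnl3 libraries in the fit was left out.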

How the data were processed

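The deposited files hold raw read counts per gene, made by the authors with STAR 2.7.9a and HTSeq 0.11.2 on GRCm39, per the submitters' processing notes; the annotation release and the strand setting are not given in the sources used here. The 5 summary lines naming no gene were dropped; the largest, reads in no gene, held 46.6% to 47.8% of the total in the 6 Gnl3 siRNA libraries. Counts were fitted with edgeR 4.0.16 (TMM, quasi-likelihood) in R 4.3.3 over 15 libraries of all 6 groups, without the 2 whole-cell libraries whose labels mark them as outliers, and Benjamini-Hochberg adjustment ran across every gene in the fit, with a threshold of 0.05. DESeq2 1.42.0, a fit of all 17 libraries, no filter, library totals, the Gnl3 libraries alone, a culture block and the omission of each library were alternatives, and the fit was tested on simulated counts. Same-numbered fractions come from 1 lysate, per the design text. Their residuals correlated at -0.007, 0.015 and 0.006 in the 3 Gnl3 pairs. These residuals are deviations from group means over all 17 libraries. Whole-cell replicate 3 weighs on those means, so the correlations cannot show whether the pairs share variation. CPM values are counts divided by the library's total gene count and multiplied by 1000000, without TMM.

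Hydropathy was computed from the GENCODE M21 coding sequences, matched by gene. Named genes are the 12 largest rises and 12 largest falls among called genes with a mean of at least 20 CPM in the higher fraction and the same direction in all 3 pairs, mitochondrially encoded genes apart, and in each list up to 3 called members at either end. Rrbp1 and the genes of the closing observations were chosen after their values were seen. The members and lists were chosen with earlier results of these data known. A few genes that this rule names are not reported here.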

Additional observations from a re-analysis of the deposited data

Results flagged for a closer look

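The ER to whole-cell ratio of Nmd3 differed between the Gnl3 and the Nmd3 siRNA by a test of the difference itself, by 0.50 on the log2 scale (SE 0.09, edgeR adjusted p = 0.0283). In each sample set the ratio was below 0, at -0.32 after Gnl3 and -0.82 after Nmd3 siRNA. The call was lost with the replicate block, with all 17 libraries and when any 1 Gnl3 library was left out.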

How the results depend on the processing

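The whole-cell libraries labelled as outliers had the most weight. With all 17 libraries both Gnl3 replicate 3 and the Nmd3 library are brought back, so their parts cannot be told apart there. Against 8795 genes called, 4540 were called with all 17 libraries (1910 higher, 2630 lower), 2975 with the replicate block and all 17 libraries (1331 higher, 1644 lower) and 3760 with only the 6 Gnl3 siRNA libraries (1505 higher, 2255 lower), and 4420, 2968 and 3750 of them were among the 8795; the cause was not tested beyond the biological coefficient of variation, which was 0.236 with 17 and 0.0625 with 15 libraries. The replicate block alone gave 8412 calls, DESeq2 8304 and the omission of each library 7057 to 8275. The 5 Gnl3 libraries of the fit by themselves gave 9341, against 3760 once whole-cell replicate 3 was added to them. For the difference from scramble 1 gene, Ftl1, was called lower without a filter on low counts (-0.37, edgeR adjusted p = 0.00977), and 0 otherwise. For the difference from Nmd3 siRNA 0 genes were called with all 17 libraries, with the replicate block, with both and in each omission of a library (0 to 0). The block therefore ended the Nmd3 call. Of the single genes and lists, 255 kept their call or value under the block and 6 lost a call. With all 17 libraries 154 kept theirs, 81 lost a call, 19 moved in value and 7 turned direction.

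Directions turned for called genes, and for lists and classes with a median beyond 0.1 either way, as follows. With all 17 libraries these were Atp6v1b2 (0.015), Ost4 (-0.093), Ergic2 (-0.063), Atp5a1 (0.025), Mrps35 (-0.028), Plxnb1 (0.00453) and the cytosolic sterol and fatty acid enzymes (median 0.045). With the block and all 17 they were Ftl1 (0.44), Atp6v1b2 (0.037), Ost4 (-0.021), Ergic2 (-0.021), Atp5a1 (0.048), Plxnb1 (0.056) and the same enzymes (0.047). With only the 6 Gnl3 libraries they were Lamp2 (-0.0022), Atp6v1d (-0.017), Ost4 (-0.12), Ergic2 (-0.084), Atp5a1 (0.0094), Mrps35 (-0.049) and the enzymes (0.028). Among protein classes the median turned negative at the longest lengths, from 2000 residues at -0.78 for an N-terminal stretch only, -0.42 with 1 and -0.33 with 2 or more internal segments in addition, and for 2 or more internal segments alone at -0.30 from 1000 and -1.22 from 2000 residues. Smaller medians crossed 0 too: glycolytic enzymes (0.075) and pluripotency factors (-0.033) with all 17 libraries, a C-terminal segment only from 500 residues (-0.20), and, below 500 residues, 1 internal segment (0.20 and 0.69) and no segment (0.055 and 0.25). The cause was not tested. Depth limits genes at low counts, where intervals are widest.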

Other observations

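Some genes went against their class, and these were picked after their values were seen. Among proteins with no hydrophobic segment by the measure used here, the mitochondrial amidoxime reductase Marc2 (1.40), the secreted protease inhibitor Serpine2 (1.39), the progranulin gene Grn (1.29, overlapping Fam171a2), the signal peptidase subunit Sec11a (1.29), the carboxypeptidase-like Cpxm1 (1.28) and the ER selenoprotein Selenok (1.26) were among the highest. Serpine2, Grn and Cpxm1 had an N-terminal run with a mean hydropathy of 1.91, 1.83 and 1.99, just under the threshold of 2.0. Several others overlap on the other strand a gene for a membrane or secretory protein: Snx22 (1.32) overlaps Ppib, Sla2 (1.24) overlaps Rab5if and Prickle3 (1.21, not called with all 17 libraries, edgeR adjusted p = 0.125) overlaps Plp2.

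Among proteins with an N-terminal stretch the lowest were the replication clamp unloader Atad5 (-1.67), whose run lay at the threshold, the ER membrane kinesin receptor Ktn1 (-1.65, SE 0.38), the endocytic receptor Lrp2 (-1.30), Pi4ka (-1.20, overlapping Snap29), the membrane protein Lmbrd2 (-1.19), the fucosyltransferase Fut9 (-1.14), the BMP receptor Bmpr2 (-1.07) and the ER tether Pdzd8 (-1.07).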
